A study of Mus musculus with 5 samples.

Results

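The genes described here are 31 type I interferon-stimulated genes, chosen by symbol from a list and found, all 31, among the 23337 genes counted in each of 5 RNA-seq libraries. By known function they were grouped as 4 sensors of nucleic acids, 3 transcription factors, 3 feedback regulators and 21 effectors. The libraries came from CD8+ T cells recovered from mouse tumors, 2 of them after an antibody that blocks PD-L1, which restrains T cells through PD-1, and 3 after a control antibody. The cells of both groups were of the strain labelled C57BL/6J CD45.1 OT-I, which carries a transgenic receptor for a peptide of ovalbumin. They were taken from donors aged 6 to 12 weeks, stimulated in culture through CD3 and CD28, kept in IL-2 and injected into mice with B16-OVA tumors, a melanoma that makes ovalbumin. Anti-PD-L1 mice received clone 10F.9G2, and Control IgG mice received a rat IgG2b against KLH, with 200 µg injected on day 3 and again on day 6 for each mouse. Tumors were taken on day 8 or at a diameter of 1.2 cm, and 5000 to 30000 live CD8+ CD45.1+ cells were sorted for each RNA sample. Every library is a pool of several mice of a group, selected for the donor marker CD45.1, and the p-values below measure only the spread between pools. How mice or days were divided over the pools is not stated in the labels.

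Type I interferons bind a receptor made of IFNAR1 and IFNAR2 and act through the kinases JAK1 and TYK2 on STAT proteins. In the complex ISGF3, STAT2 acts with IRF9, and the complex binds interferon-stimulated response elements (ISREs) near genes that sense foreign nucleic acid, block viral growth or damp the signal itself. In CD8+ T cells type I interferon is known to affect clonal expansion, effector function and exhaustion, and in tumors its usual sources are other cells, dendritic cells among them.

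To show what these genes share beyond their name, the 300 bases around their start sites (250 before and 50 after) were read from RefSeq on GRCm38.p6 for the 22 members in that table. An exact ISRE core was taken as the letters GAAANNGAAA on either strand. At least 1 stood in the promoters of 11 of the 22 members, a share of 50% (Wilson 95% interval 30.7% to 69.3%), against 3.96% of 8141 tested genes with a promoter in the table. Counted by gene in the same way, the share was 3.99% of all 27025 genes with a listed promoter. Counted by single promoter, it was 3.44% of all 32851 promoters of that length. The 11 were Ddx58, Ifih1, Stat2, Trim30a, Ifit1, Ifit3, Isg15, Oas1a, Oas3, Rsad2 and Bst2. The gamma-activated sequence (GAS) was searched as TTCNNNGAA, whose last 3 letters can be the first 3 of an ISRE core. It stood in 5 of the 22 members, 22.7%, against 8.49% of tested genes and 9.55% of all genes with a listed promoter. By single promoter it stood in 8.30%. Stretches of 60 bases upstream of the start are shown for 5 of the ISRE genes whose levels are described below, each 5′ to 3′ on the gene's own strand, with the matching letters in capitals. They were chosen to show a run of 3 overlapping matches (Isg15, at chr4:156200856-156200915, minus strand), pairs of separate matches in the reverse orientation (Ifit1, chr19:34640769-34640828, plus strand, and Ifit3, chr19:34583365-34583424, plus strand), overlapping matches close to the start (Oas1a, chr5:120907526-120907585, minus strand) and a single match (Rsad2, chr12:26456538-26456597, minus strand).
Isg15: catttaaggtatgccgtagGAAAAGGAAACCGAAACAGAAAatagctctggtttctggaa
Ifit1: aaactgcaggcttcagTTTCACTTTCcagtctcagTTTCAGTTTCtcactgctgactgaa
Ifit3: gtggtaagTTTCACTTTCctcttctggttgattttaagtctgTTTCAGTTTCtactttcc
Oas1a: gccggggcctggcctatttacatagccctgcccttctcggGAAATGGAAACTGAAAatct
Rsad2: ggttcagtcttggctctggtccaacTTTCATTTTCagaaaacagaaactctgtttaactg
A match is a description of these letters and not a bound site. The 11 members with the exact core had a median log2 fold change, anti-PD-L1 over Control IgG, of 0.48, the 11 without it 0.44, and the 9 without a listed promoter 0.41, so these medians lay close together.

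Most of the 31 genes were higher on average after anti-PD-L1, but that difference lay mainly in 1 of the 2 libraries. The libraries held 11580960 and 12830485 gene counts for anti-PD-L1 replicates 1 and 2, and 9985943 to 12395682 for Control IgG. A level is a count scaled to a common library total (CPM), with TMM factors, and differences as log2 fold changes with their standard errors from edgeR's quasi-likelihood test over 11299 genes, of which all 31 members were part. No gene passed the Benjamini-Hochberg adjusted threshold of 0.05 in edgeR, 0% of those tested, and the adjusted p of every member was 0.9999. At an unadjusted p under 0.05, edgeR placed 5 of the 31 members higher and 0 lower, where 1.19% of all tested genes were higher and 0.947% lower. DESeq2 called 4 genes and limma-voom 0 at the adjusted threshold, and none of them was a member.

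The log2 fold change was above 0 for 29 of the 31 members, against 48.1% of all tested genes, with a median of 0.45 against -0.015. Both anti-PD-L1 libraries exceeded every Control IgG library for 6 members (Irf9, Isg15, Isg20, Rsad2, Cmpk2 and Ifi35), where 7.74% of all genes did so. Both lay below every Control IgG library for 1 member, Oasl2, where 9.58% of all genes did so. The 31 genes together summed to 5148 and 2893 CPM in anti-PD-L1 replicates 1 and 2, against 2871, 2886 and 3076 CPM in the Control IgG libraries. Anti-PD-L1 replicate 2 was thus within the range of the controls in sum. Anti-PD-L1 replicate 1 was above all controls for 24 members, and replicate 2 for 9, while among all tested genes 26.3% and 21.7% were.

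Set against single controls, anti-PD-L1 replicate 1 was higher for 29, 26 and 25 of the 31 members than Control IgG replicates 1, 2 and 3. Anti-PD-L1 replicate 2 was higher for 22, 16 and 13. Leaving out anti-PD-L1 replicate 1 brought the median log2 fold change to 0.067, with 19 members above 0, and leaving out Control IgG replicate 1 brought it to 0.31, with 23 above 0. With both of these libraries left out, 1 anti-PD-L1 and 2 Control IgG libraries remained, the lone treated library was assumed to vary like the controls, and 15 of 31 members were above 0, with a median of -0.0090. Leaving out anti-PD-L1 replicate 2, which also left 1 treated library, gave a median of 0.77, with 25 members above 0. Because the RNA came from sorted cells in bulk, a larger share of responding cells and more RNA per cell cannot be told apart.

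**Figure D1:**
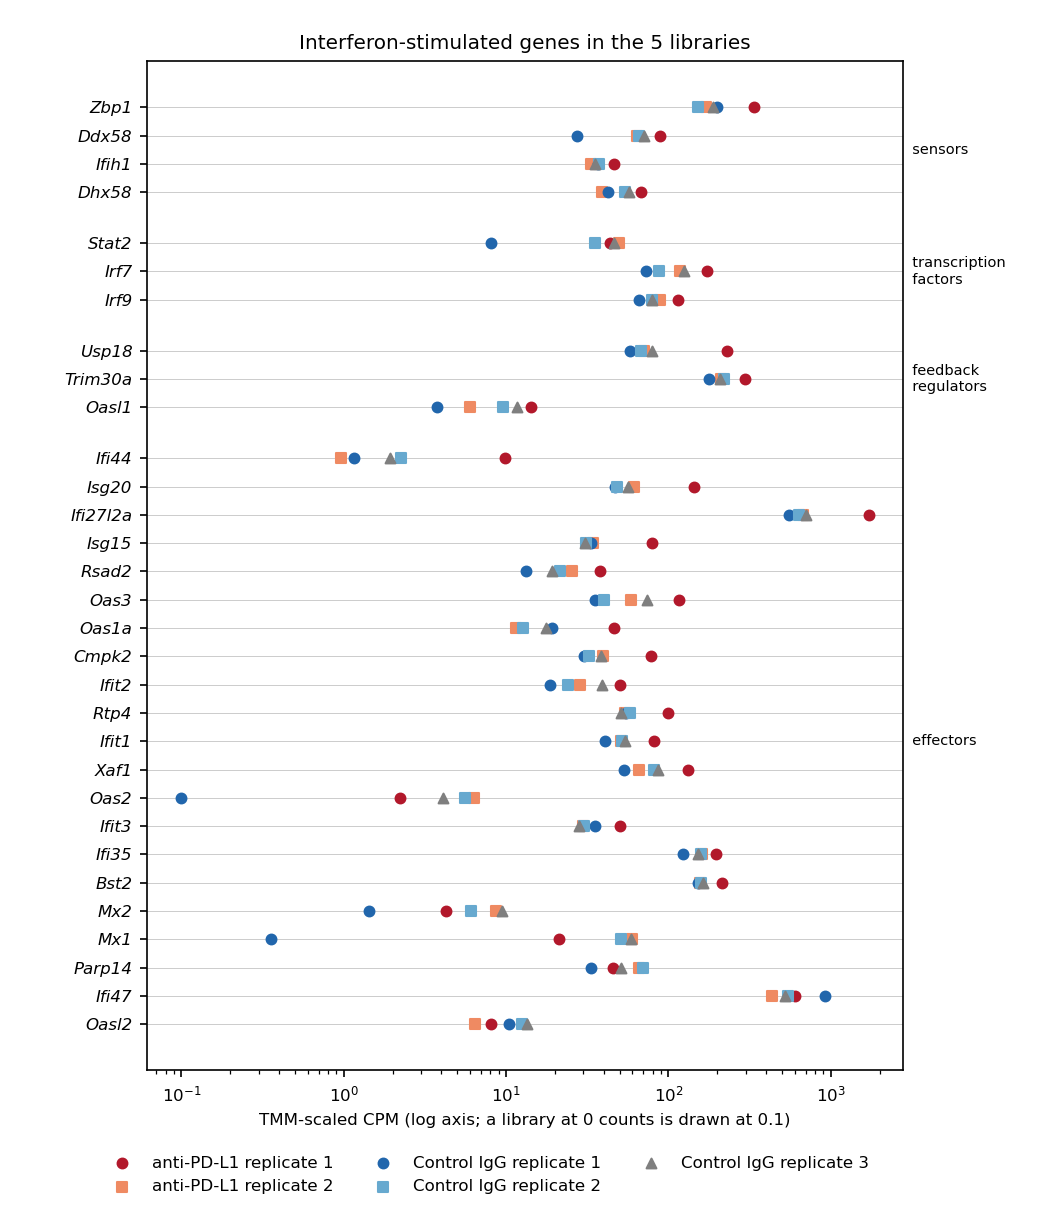
TMM-scaled CPM of each of the 31 genes on a log axis, 1 symbol per library (2 anti-PD-L1 and 3 Control IgG), grouped by role. Anti-PD-L1 replicate 1 was the highest of the 5 libraries for 24 genes (77.4%, against 24.3% of all tested genes). Control IgG replicate 1 was the lowest for 21 (67.7%, against 29.4% of all tested genes), and Oas2, at 0 counts there, is drawn at 0.1.

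Among the sensors the differences were small, with a median log2 fold change of 0.30 over 4 genes. Zbp1, which binds left-handed nucleic acid and can start cell death, stood at 337 and 170 CPM in anti-PD-L1 replicates 1 and 2, against 198, 152 and 187 CPM in the Control IgG libraries. Replicate 1 was highest of all and replicate 2 lay inside the control range, so the groups overlapped, and edgeR gave 0.50 ± 0.32 with an unadjusted p of 0.155. Ddx58, which encodes the RNA helicase RIG-I, had 88.5 and 63.8 CPM in anti-PD-L1 libraries, against 27.5, 65.8 and 70.3 CPM in Control IgG libraries. Its fold change of 0.48 ± 0.41 (edgeR, unadjusted p = 0.270) shrank to 0.16 when Control IgG replicate 1 was left out, and the anti-PD-L1 replicate 2 value was below those of the other 2 controls. The helicases related to RIG-I differed less. Ifih1 (MDA5) had 46.4 and 33.4 CPM after anti-PD-L1, against 36.7, 37.6 and 35.4 CPM after Control IgG, a log2 difference of 0.12 ± 0.28. Dhx58 (LGP2), which modulates the other helicases, had 67.9 and 39.1 CPM after anti-PD-L1, against 42.6, 54.2 and 57.0 CPM after Control IgG, a difference of 0.060 ± 0.31. All 4 sensors were highest in anti-PD-L1 replicate 1, as were 24.3% of all tested genes. For Ifih1 and Dhx58 anti-PD-L1 replicate 2 was the lowest of the 5.

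The 3 transcription factors carry the signal into the nucleus and had a median log2 fold change of 0.61. Irf7, the factor that amplifies interferon production, had 172 and 118 CPM in anti-PD-L1 libraries and 73.2, 87.5 and 125 CPM in Control IgG libraries. Only replicate 1 stood above the third control, and the difference was 0.61 ± 0.31 (edgeR, unadjusted p = 0.0809). Irf9, the DNA-binding subunit of ISGF3, had 115 and 88.4 CPM in anti-PD-L1 libraries, against 65.6, 79.4 and 79.7 CPM in Control IgG libraries. These groups did not overlap, with a difference of 0.44 ± 0.25 (edgeR, unadjusted p = 0.111). Irf9 shares 123 bases with Rnf31 on the same strand, where strand cannot separate reads. Irf7 shares 45 with Phrf1 on the opposite strand, where the unstranded chemistry does not separate them. Stat2, the ISGF3 partner that gives the complex its transactivation domain, had 43.7 and 49.8 CPM after anti-PD-L1, against 8.13, 35.4 and 46.1 CPM after Control IgG. Its difference was 0.64 ± 0.59 (edgeR, unadjusted p = 0.308) and 0.20 without the low Control IgG replicate 1, and both treated libraries lay close to the third control. Stat2 was also the factor with the widest error of the 3.

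The feedback regulators had a median log2 fold change of 0.33, with a wide spread between genes. Usp18, the protease that removes ISG15 from proteins and blocks signalling at IFNAR2, stood at 230 and 71.0 CPM in anti-PD-L1 libraries, against 58.3, 68.1 and 79.5 CPM in Control IgG libraries. Replicate 1 was 3.25 times replicate 2, which was itself inside the control range. The difference was 1.13 ± 0.44 (edgeR, unadjusted p = 0.0324), and 0.047 without replicate 1. Trim30a, a mouse TRIM protein known to restrain NF-kappaB signalling, had 296 and 212 CPM after anti-PD-L1 and 179, 220 and 208 CPM after Control IgG. The groups overlapped, at 0.33 ± 0.25 (edgeR, unadjusted p = 0.225). Oasl1, which in mice limits translation of Irf7 mRNA, was low in every library, at 14.3 and 5.96 CPM after anti-PD-L1 and 3.75, 9.62 and 11.7 CPM after Control IgG. Replicate 2 of anti-PD-L1 was below 2 of the 3 controls for this gene, and the difference was 0.27 ± 0.60.

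The effectors held the 4 other members with an unadjusted p under 0.05 beside Usp18. Isg20, an exonuclease that degrades viral RNA, had 145 and 61.4 CPM in anti-PD-L1 libraries, against 46.8, 48.0 and 56.0 CPM in Control IgG libraries. Both treated libraries were above all controls, replicate 1 by far the more, and the difference of 1.03 ± 0.36 had the smallest p of the 31 members (edgeR, unadjusted p = 0.0202). Without replicate 1 it was 0.29. Ifi27l2a, a small protein of the interferon-induced Ifi27 family, had 1713 and 678 CPM after anti-PD-L1, against 552, 638 and 701 CPM after Control IgG. Replicate 2 lay inside the control range, and edgeR gave 0.92 ± 0.37 with an unadjusted p of 0.0381. Leaving out replicate 1 brought it to 0.10. Cmpk2, a mitochondrial nucleotide kinase that lies next to Rsad2 on chromosome 12, had 78.2 and 39.3 CPM after anti-PD-L1, against 30.2, 32.3 and 38.3 CPM after Control IgG. Its groups did not overlap, although replicate 2 exceeded the third control by little, and the difference was 0.81 ± 0.34 (edgeR, unadjusted p = 0.0439), or 0.22 when replicate 1 was left out. Rsad2, or viperin, a radical enzyme that makes a chain-terminating nucleotide, had 38.1 and 25.5 CPM after anti-PD-L1, against 13.2, 21.6 and 19.2 CPM after Control IgG. Here too the groups did not overlap, at 0.82 ± 0.35 (edgeR, unadjusted p = 0.0467), or 0.50 when replicate 1 was left out. Rsad2 and Cmpk2 are transcribed away from each other, and both had replicate 1 highest, replicate 2 second and Control IgG replicate 1 lowest.

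Isg15, the ubiquitin-like protein that Usp18 removes, had 79.7 and 34.4 CPM in anti-PD-L1 libraries, against 33.6, 31.3 and 30.8 CPM in Control IgG libraries. The 3 controls were close to each other, replicate 2 of anti-PD-L1 was just above them, and the difference of 0.84 ± 0.36 (edgeR, unadjusted p = 0.0501) was 0.11 without replicate 1. Ifi35, which binds the factor NMI, had 196 and 161 CPM after anti-PD-L1, against 123, 159 and 152 CPM after Control IgG. Its groups were apart with TMM scaling and overlapped on library totals, at 0.30 ± 0.24 (edgeR, unadjusted p = 0.247). Ifit1, which binds viral RNA that lacks host cap methylation, had 82.0 and 51.2 CPM after anti-PD-L1, against 40.8, 51.5 and 54.3 CPM after Control IgG. Replicate 2 was inside the control range, at 0.45 ± 0.30 (edgeR, unadjusted p = 0.170). Its relatives Ifit2 (50.0 and 28.4 CPM after anti-PD-L1, 18.6 to 39.2 CPM after Control IgG) and Ifit3 (50.4 and 29.6 CPM after anti-PD-L1, 28.3 to 35.1 CPM after Control IgG) had the same arrangement, at 0.52 ± 0.40 and 0.36 ± 0.32.

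The oligoadenylate synthetases, which make oligoadenylates when they bind double-stranded RNA, did not share 1 pattern. Oas3 had 117 and 58.7 CPM in anti-PD-L1 libraries, against 35.6, 39.9 and 74.3 CPM in Control IgG libraries, a difference of 0.81 ± 0.41. Oas1a had 46.4 and 11.5 CPM after anti-PD-L1, against 19.2, 12.8 and 17.5 CPM after Control IgG, so replicate 1 was the highest and replicate 2 the lowest library, and its 0.81 ± 0.54 averages the 2. Oas2 was low, at 2.22 and 6.33 CPM after anti-PD-L1, and 0, 5.60 and 4.06 CPM after Control IgG. It was above the floor of 3 counts in every library but Control IgG replicate 1. The 0 in Control IgG replicate 1 allows up to 0.268 CPM on this scale, and the standard error of the fitted 0.41 ± 1.34 was larger than the difference. Oasl2, related to these enzymes, was the member with groups apart in the other direction, at 8.06 and 6.48 CPM after anti-PD-L1, against 10.4, 12.5 and 13.4 CPM after Control IgG. Both treated libraries were below every control, at -0.73 ± 0.40 (edgeR, unadjusted p = 0.103). Members of the Ifit, Oas, Mx, Trim30 and Ifi27l2 families resemble each other, and the handling of reads that map to several places is not given in the sources used here.

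The Mx genes, of a family of dynamin-like GTPases, showed wide gaps between libraries. Mx1 had 228 and 807 counts in anti-PD-L1 libraries, which is 21.1 and 60.1 CPM, and 4, 545 and 769 counts in Control IgG libraries, which is 0.357, 50.9 and 58.9 CPM. The first library of each group was low, the first control close to the floor of 3 counts, and the other 3 libraries were alike, and the standard error of the fitted 0.15 ± 1.22 was far larger than the difference. Mx2 had 4.26 and 8.64 CPM after anti-PD-L1, against 1.43, 6.07 and 9.50 CPM after Control IgG, in the same order of replicates 1 and 2 within each group. Parp14, an ADP-ribosyltransferase, had 45.5 and 66.2 CPM after anti-PD-L1 and 33.2, 69.9 and 51.3 CPM after Control IgG, again with each first library below the second, and a difference of 0.12 ± 0.36.

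Of the remaining effectors, Ifi44, Rtp4, Xaf1 and Bst2 were highest in replicate 1 of anti-PD-L1. Ifi44 had 9.82 and 0.968 CPM in anti-PD-L1 libraries, against 1.16, 2.24 and 1.92 CPM in Control IgG libraries, which is 106 counts in replicate 1 and 13 in replicate 2. That gene had the highest fold change of all 31, 1.60 ± 0.97, and its replicate 2 value was the lowest of the 5 libraries. Rtp4, a Golgi chaperone of receptors, had 99.4 and 53.8 CPM after anti-PD-L1, against 51.3 to 58.3 CPM after Control IgG, at 0.49 ± 0.31. Xaf1, a promoter of apoptosis that antagonises XIAP, had 131 and 65.9 CPM after anti-PD-L1, against 53.4 to 85.9 CPM after Control IgG, at 0.42 ± 0.35. For both, replicate 2 lay among the controls. Bst2, or tetherin, which holds virions at the cell surface, had 215 and 158 CPM after anti-PD-L1, against 152 to 164 CPM after Control IgG, at 0.24 ± 0.24. Ifi47, an immunity-related GTPase that is also induced by interferon-gamma, was the second member with a fold change below 0, at 604 and 437 CPM after anti-PD-L1 and 924, 542 and 525 CPM after Control IgG, a difference of -0.35 ± 0.33. It was the 1 member with its highest level in Control IgG replicate 1, and it shares 111 bases with Olfr56 on the same strand.

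**Figure D2:**
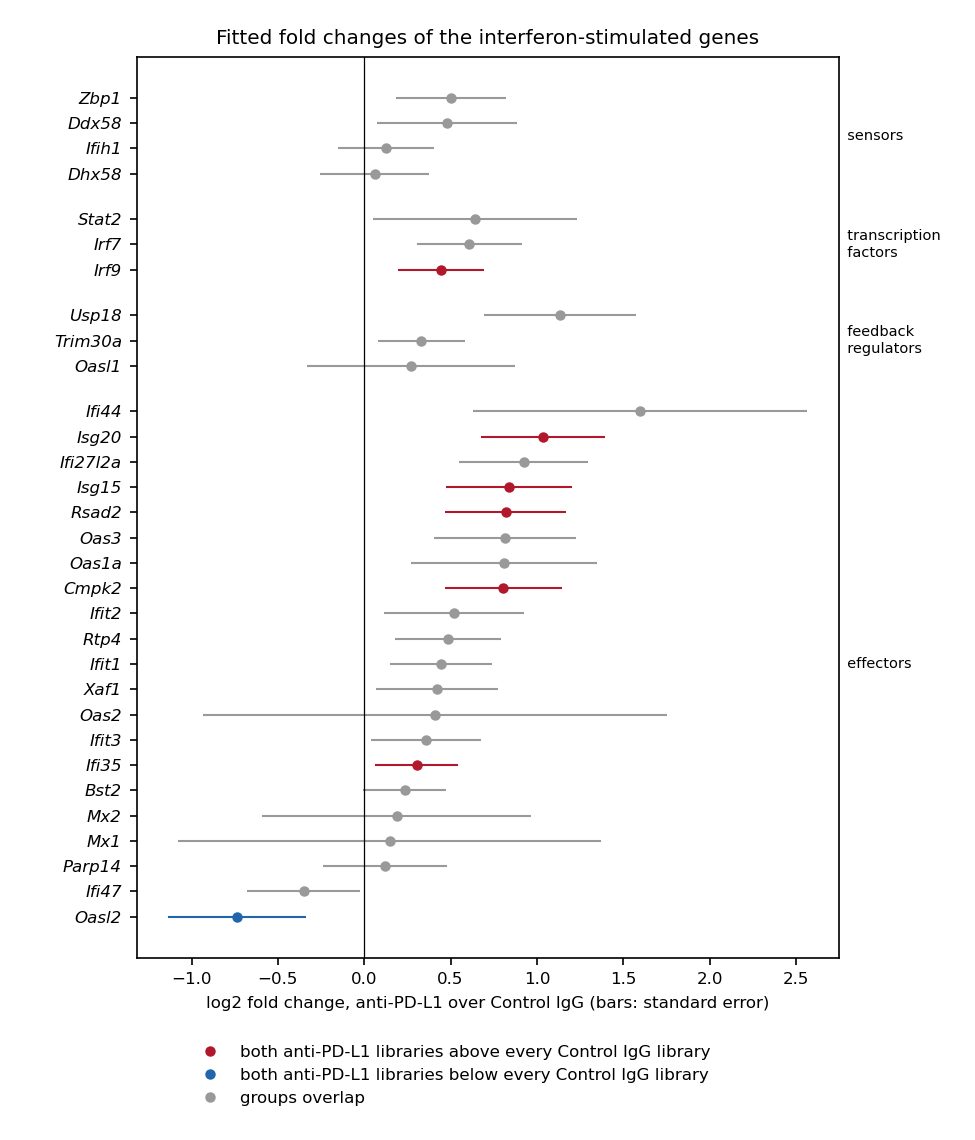
Fitted log2 fold change of each gene, anti-PD-L1 (n = 2) over Control IgG (n = 3), with its standard error as a bar; red marks genes whose treated libraries both exceed every control, blue those where both lie below, grey overlap. Values run from -0.73 (Oasl2) to 1.60 (Ifi44), and the bars of Mx1 and Oas2 are the widest.

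Side by side, the median log2 fold changes were 0.30 for sensors, 0.61 for transcription factors, 0.33 for feedback regulators and 0.45 for effectors. As a log2 deviation from the mean of the Control IgG libraries, the median sensor was 0.61 in replicate 1 of anti-PD-L1 and -0.098 in its replicate 2, and the median effector was 0.87 and 0.11. The median feedback regulator stood at 0.91 and 0.060 in these libraries. The transcription factors stood at 0.87 in replicate 1 and 0.35 in replicate 2, which was within their values of -0.34, 0.089 and 0.43 in Control IgG replicates 1, 2 and 3. Differences between roles were not tested, since each role holds few genes that share the same 5 libraries.

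**Figure D3:**
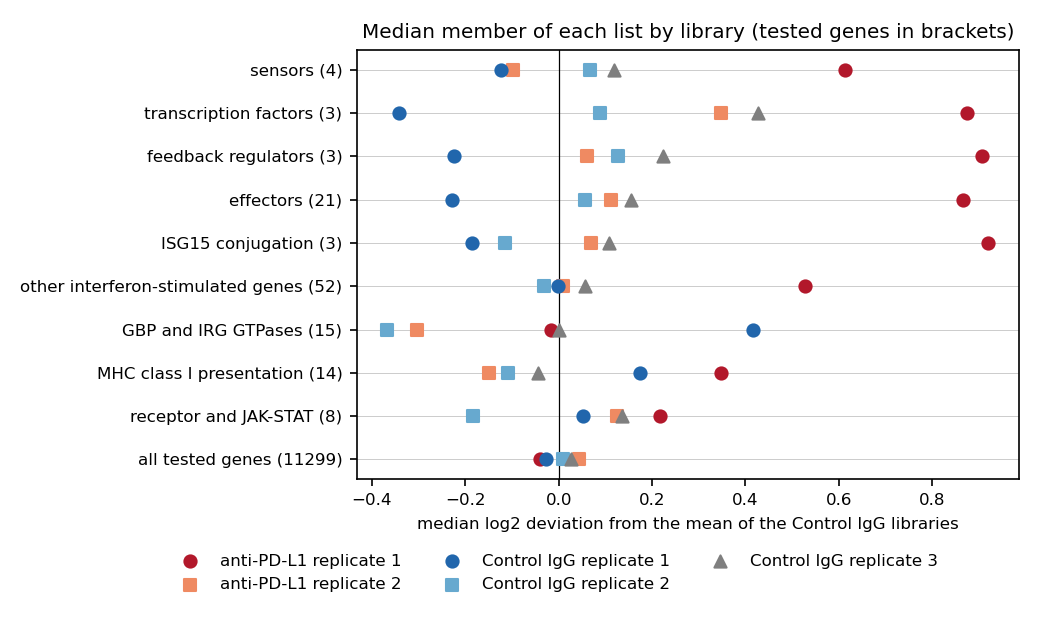
Median log2 deviation from the mean of the 3 Control IgG libraries, for the genes of each list, 1 symbol per library. For each of the 4 roles anti-PD-L1 replicate 1 lies to the right of all other libraries, while replicate 2 lies within the range of the controls.

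Per kilobase of exon, the order of levels was much the same in both groups. Ifi27l2a was far the highest, at 2581 ± 1581 CPM per kb in anti-PD-L1 libraries (SD, n = 2) and 1361 ± 162 CPM per kb in Control IgG libraries (SD, n = 3). Ifi47 followed at 210.5 ± 47.9 after anti-PD-L1 and 268 ± 91.3 after Control IgG, and Bst2 at 206 ± 44.9 after anti-PD-L1 and 175 ± 6.70 after Control IgG. These neighbours in the order differed by less than their spread after anti-PD-L1, although Ifi47 was above Bst2 in every library of both groups. Ifi35, Zbp1, Trim30a and Isg15 came next, between 61.9 and 103 CPM per kb after anti-PD-L1 and between 42.2 and 83.7 CPM per kb after Control IgG. At the low end, Ifi44 had 0.880 ± 1.02 CPM per kb after anti-PD-L1 and 0.289 ± 0.0903 after Control IgG, and Oas2 0.961 ± 0.653 after anti-PD-L1 and 0.724 ± 0.650 after Control IgG. These 2 also could not be ordered beyond their spread in anti-PD-L1 cells.

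The first library of each group differed from the other 3 in ways not particular to interferon genes. Anti-PD-L1 replicate 1 had 11977 genes with a count and Control IgG replicate 1 had 11696, against 13564 in anti-PD-L1 replicate 2 and 13673 and 13801 in the other controls. Among the tested genes in the longest of 4 length classes, the median log2 deviation from the control mean was -0.19 and 0.24 in the anti-PD-L1 libraries, replicates 1 and 2, and -0.30, 0.22 and 0.10 in the Control IgG libraries. For the 31 members, the Spearman correlation across genes between deviation and transcript length was -0.12 and 0.34 in anti-PD-L1 replicates 1 and 2, and -0.50, 0.36 and 0.29 in the Control IgG libraries, as a description over genes of the same libraries. Members in the shortest class (n = 10) had a median deviation of 1.09 in the first anti-PD-L1 library and -0.029 in the first Control IgG library. The 9 members of the next class stood at 0.87 in anti-PD-L1 replicate 1 and -0.25 in Control IgG replicate 1. The median member of anti-PD-L1 replicate 1 was above 0 in each of the 4 length classes, while that of Control IgG replicate 1 was lowest at -0.50 in the third class, which holds Mx1, Oas2 and Stat2. The part of transcript length in the fold changes was not tested.

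**Figure D4:**
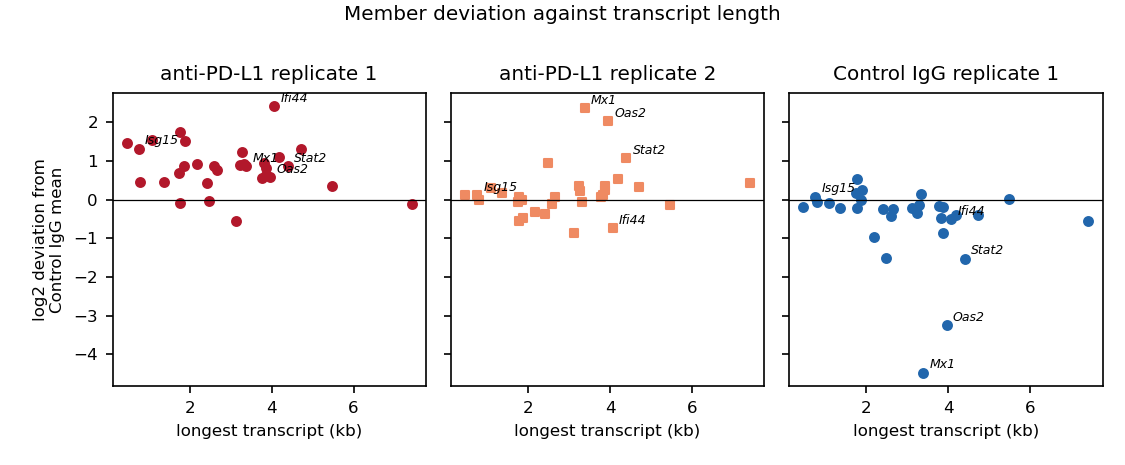
Log2 deviation of each of the 31 genes from the mean of the 3 Control IgG libraries against the length of its longest transcript in kb, for the 2 anti-PD-L1 libraries and Control IgG replicate 1. Most genes lie above 0 in anti-PD-L1 replicate 1 at all lengths; since the control mean includes Control IgG replicate 1, the very low Mx1 and Oas2 of that library raise their deviations in the others.

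The cells carried the markers of their label. Cd8a, Lck and 6 other T cell genes summed to 9385 and 7841 CPM of library totals in anti-PD-L1 libraries, against 8205, 7310 and 7589 CPM in Control IgG libraries. Of these 8, 7 were highest in anti-PD-L1 replicate 1, against 24.3% of all tested genes. Of 10 macrophage and monocyte markers, led by Lyz2 and C1qb, the sum was 78.6 and 123 CPM after anti-PD-L1 and 198, 139 and 79.7 CPM after Control IgG. Anti-PD-L1 replicate 1 and Control IgG replicate 3 were thus close to each other. The 9 dendritic cell markers, led by Xcr1 and Zbtb46, summed to 18.1 and 17.4 CPM after anti-PD-L1 and 10.4 to 13.7 CPM after Control IgG. All of the 18.1 CPM was Xcr1, with the other 8 markers at 0 in that library, and Siglech of plasmacytoid cells was at 0 in every library but Control IgG replicate 3. The 8 natural killer cell genes summed to 219 and 125 CPM after anti-PD-L1 and 101 to 128 CPM after Control IgG. Klre1, which effector CD8+ T cells also can express, gave 202 CPM of the 219, and Klra4 and Klra8 were at 0 in all libraries. Melanoma transcripts, led by Pmel and Dct, summed to 40.1 and 103 CPM after anti-PD-L1 and 4.03, 300 and 95.1 CPM after Control IgG. Their sum was highest in Control IgG replicate 2. It was lowest in Control IgG replicate 1, which was also the lowest library for 21 of the 31 members, against 29.4% of all tested genes. Neutrophil, B cell, CD4 T cell, and fibroblast and endothelial markers each summed to less than 60 CPM in every library. The part of these other cells in the differences was not tested.

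Outside the 31 genes, transcripts of the ligands were not found. Of 18 type I interferon genes, 16 had 0 counts in every library and Ifnz and Ifne had at most 1, where 3 counts correspond to 0.234 to 0.300 CPM of library totals. The Ifna genes among them are near copies of each other, so reads of 1 may map to several. The receptor and its JAK-STAT chain were present. The log2 fold change was above 0 for 6 of 8 genes, against 48.1% of all tested genes, with a median of 0.12. Ifnar1 had 110 and 157 CPM in anti-PD-L1 libraries, against 74.1, 101 and 119 CPM in Control IgG libraries, at 0.44 ± 0.29 (edgeR, unadjusted p = 0.164). Jak1 had 499 and 438 CPM after anti-PD-L1, against 387, 385 and 390 CPM after Control IgG, so its groups were apart, at 0.27 ± 0.22 (edgeR, unadjusted p = 0.252).

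The enzymes that attach ISG15 included Herc6, its main ligase in mice, at 80.9 and 58.8 CPM in anti-PD-L1 libraries, against 42.9, 39.4 and 46.0 CPM in Control IgG libraries. Its groups were apart, at 0.71 ± 0.26 (edgeR, unadjusted p = 0.0265). Ube2l6, the conjugating enzyme, had 74.6 and 34.9 CPM after anti-PD-L1 and 29.2 to 38.6 CPM after Control IgG, at 0.71 ± 0.36 (edgeR, unadjusted p = 0.0820). Among 52 further interferon-stimulated genes that could be tested, the fold change of 41 was above 0, against 48.1% of all tested genes. Their median was 0.24. The median log2 deviation of these genes was 0.53 and 0.0089 in anti-PD-L1 replicates 1 and 2. It was -0.0017, -0.031 and 0.057 in Control IgG replicates 1, 2 and 3, so anti-PD-L1 replicate 2 lay within the control range. Anti-PD-L1 replicate 1 was the highest library for 31 of the 52 (59.6%), against 24.3% of all tested genes. For 10 the treated libraries both exceeded every control, where 7.74% of all genes did so. For 3 both lay below, against 9.58% of all genes. The membrane proteins Ifitm1 and Ifitm2, which block viral entry, had the smallest p. Ifitm1 stood at 694 and 313 CPM after anti-PD-L1, against 220, 183 and 208 CPM after Control IgG, at 1.31 ± 0.34 (edgeR, unadjusted p = 0.00462). Ifitm2 stood at 127 and 112 CPM after anti-PD-L1, against 75.7, 73.4 and 73.2 CPM after Control IgG, at 0.69 ± 0.22 (edgeR, unadjusted p = 0.0146). Both were above all controls in replicate 2 as well as replicate 1, and for Ifitm2 the anti-PD-L1 libraries were close to each other.

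The guanylate-binding proteins and immunity-related GTPases, which interferon-gamma also induces, were arranged otherwise. Of 15 tested, 5 had a log2 fold change above 0, against 48.1% of all genes, and 10 below, with a median of -0.22. For 4 of them (Gbp2, Gbp5, Iigp1 and Tgtp1) both treated libraries lay under every control, against 9.58% of all genes, and for 0 above. Iigp1 had 24.3 and 16.1 CPM after anti-PD-L1, against 84.8, 30.5 and 29.4 CPM after Control IgG, and was the 1 gene of the list with an unadjusted p under 0.05 (edgeR, 0.0420). Their median deviation was -0.017 and -0.30 in anti-PD-L1 replicates 1 and 2, and 0.42, -0.37 and 0.00051 in Control IgG replicates 1, 2 and 3. Control IgG replicate 1 was the highest library for 9 of these 15, against 28.2% of all tested genes. It was the lowest for 21 of the 31 genes above, against 29.4% of all tested genes. Ifi47, of the same GTPase family, was likewise highest in Control IgG replicate 1. The difference between the lists was not tested.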

How the data were processed

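RNA-seq was done on 5 pools of sorted cells by a modified Smart-seq2 protocol (8 pre-amplification and 12 library PCR cycles), which marks neither strand nor molecule, so floors and intervals cover counting error only. The authors deposited unnormalized whole-number counts, 1 per gene symbol and library. TopHat, HTSeq and mm10 are named per the submitters' processing notes; versions, annotation and strand setting: not given in the sources used here. The 5 counter lines of each file entered neither library sizes nor tests (7.46% to 15.2% of counts lay outside features and 1.38% to 1.51% were ambiguous). No pair of libraries agreed within sampling noise.

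The two-sided quasi-likelihood test of edgeR 4.0.16 in R 4.3.3 was run with TMM and filterByExpr (minimum count 10, minimum total 15), and adjusted by Benjamini-Hochberg over 11299 genes. A standard error is the log2 fold change divided by the square root of F. Log2 CPM deviations used a prior count of 2. Marker sums are CPM of library totals. Alternatives used DESeq2 1.42.0, limma 3.58.1, other scaling, no filter, the replicate number as a block and left-out libraries. The edgeR step was checked on simulated data. Overlaps, lengths and gene positions are from GENCODE vM21 on GRCm38, and promoter sequences from RefSeq on GRCm38.p6.

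The members and lists were chosen with earlier results of these data known. All 31 members are named. Given in full are the 2 of smallest unadjusted p per role, those whose groups do not overlap, and Isg15, Ifit1, Irf7, Usp18, Stat2 and Ddx58. For other lists the 2 genes of smallest unadjusted p are named, and for markers the 2 of highest mean CPM; Klre1, Siglech, Gbp2, Gbp5, Klra4, Klra8, Ifnz and Ifne were named after their values were seen. The value of 1 gene that this rule names is not reported here. Of 241 list symbols, 8 matched by an older symbol and 6 were not matched. Length classes split the tested genes into 4 by the longest transcript.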

Additional observations from a re-analysis of the deposited data

How the results depend on the processing

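No member passed the adjusted threshold under any of the alternatives run. The count over all genes was 0 in edgeR, 5 with no filter and 4 in DESeq2. The members with an unadjusted p under 0.05 numbered 5 in edgeR, 3 on library totals and 2 in limma-voom. They numbered 6 with RLE size factors, 7 with no filter, 6 in DESeq2 and 5 with the replicate block. The share over all tested genes is given for the main edgeR fit only, 1.19% higher and 0.947% lower. On library totals Dhx58 was at -0.0069. With the replicate number as a block the medians of feedback regulators and effectors were 0.60 and 0.69 on the log2 scale. The labels do not say what a number stands for, and only 2 pairs exist. Correlations of their deviations from the group means were 0.331 and 0.374, and -0.374 and -0.331 with the numbers crossed. The deviations of the 2 anti-PD-L1 libraries mirror each other, so these values are not independent of each other. The block moved Mx1 to 2.18, Oas2 to 2.06, Stat2 to 1.43 and Mx2 to 1.01, and limma-voom moved Mx1 to 1.72 and Oas2 to 1.93. Without both libraries numbered 1, 15 members were above 0, with medians of -0.0090 for all members, -0.12 for sensors, 0.14 for transcription factors, -0.071 for feedback regulators and 0.0088 for effectors. In that setting the log2 fold changes below 0 of genes above 0 with all libraries were Ddx58 -0.11, Ifih1 -0.14, Dhx58 -0.52, Zbp1 -0.0090, Usp18 -0.071, Oasl1 -0.86, Trim30a -0.025, Ifit1 -0.061, Ifit2 -0.18, Oas1a -0.41, Bst2 -0.046, Ifi44 -1.10, Rtp4 -0.039 and Xaf1 -0.36. Leaving out 1 library at a time, the members above 0 ranged from 19 to 29, those with an unadjusted p under 0.05 from 0 to 14, and the medians from 0.067 to 0.77 for all members, -0.10 to 0.57 for sensors, 0.31 to 0.85 for transcription factors, 0.047 to 0.78 for feedback regulators and 0.10 to 0.85 for effectors. The fold changes then ranged from -0.13 to 0.37 for Ifih1, -0.39 to 0.43 for Dhx58, -0.075 to 0.94 for Zbp1, -0.49 to 0.78 for Oasl1, -0.074 to 0.72 for Ifit3, -0.79 to 0.71 for Mx1, -0.40 to 0.78 for Mx2, -0.52 to 1.52 for Oas1a, -0.52 to 1.07 for Oas2, -0.0068 to 0.46 for Bst2, -0.87 to 2.48 for Ifi44, -0.026 to 0.89 for Rtp4, -0.16 to 0.85 for Xaf1 and -0.16 to 0.40 for Parp14. The 12 members that kept 1 direction under all settings were Stat2, Irf9, Irf7, Isg15, Isg20, Oas3, Oasl2, Rsad2, Ifi27l2a, Cmpk2, Ifi35 and Ifi47, although without both libraries numbered 1 Ifi27l2a was at 0.0035, Oas3 at 0.022 and Ifi35 at 0.037. With 1 mismatch allowed, an ISRE core stood in 90.9% of the 22 members, against 32.7% of tested genes. The cause of these shifts was not tested. Counts were low in single libraries for Oas2 (0 in Control IgG replicate 1), Mx1 (4 there), Mx2 (16 there) and Ifi44 (13 there and in anti-PD-L1 replicate 2). With 2 and 3 pools a group, the parts of depth and of the spread between pools in the precision were not tested.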

Other observations

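Interferons of both types are known to induce antigen presentation genes. Of 14 genes of MHC class I presentation, 12 had a log2 fold change above 0, against 48.1% of all tested genes. Their median was 0.11, but the treated libraries lay on opposite sides of the control mean. Replicate 1 of anti-PD-L1 had a median log2 deviation of 0.35, and was the highest library for 9 of the 14 (64.3%). Among all tested genes that share was 24.3%. The other treated library, replicate 2, stood at -0.15, below the Control IgG values of 0.17, -0.11 and -0.045. The difference from the 31 interferon-stimulated genes was not tested. Psme1, a subunit of the proteasome activator PA28, had 523 and 613 CPM in anti-PD-L1 libraries, against 837, 728 and 679 CPM in Control IgG libraries, so its groups were apart downward, at -0.40 ± 0.24 (edgeR, unadjusted p = 0.134). Tap2, a peptide transporter subunit, had 483 and 371 CPM after anti-PD-L1, against 344, 264 and 388 CPM after Control IgG, at 0.36 ± 0.27 (edgeR, unadjusted p = 0.206).

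The nucleic acid sensing route beyond the 4 sensors had 9 of 16 tested genes above 0, with a median of 0.027. Of 12 other negative regulators of interferon signalling 5 were above 0, with a median of -0.025, where 48.1% of all tested genes were above 0. The kinase Tbk1, which phosphorylates interferon regulatory factors, was at 0.54 ± 0.43 (edgeR, unadjusted p = 0.241). Trex1, a nuclease that removes cytosolic DNA, had 129 and 98.1 CPM in anti-PD-L1 libraries, against 89.6, 85.0 and 80.2 CPM in Control IgG libraries, with the groups apart, at 0.42 ± 0.24 (edgeR, unadjusted p = 0.117). Pias1, a SUMO ligase that inhibits STAT signalling, was at 0.38 ± 0.29 (edgeR, unadjusted p = 0.217).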
